A study of Mus musculus with 10 samples.

Results

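Desmosomes are spot junctions that tie the keratin filaments of neighbouring epithelial cells together. Their adhesive part consists of desmogleins and desmocollins, cadherins that span the membrane and bind those of the next cell. Inside the cell, plakoglobin (Jup) and the plakophilins join the cadherin tails to desmoplakin (Dsp), which in turn holds the filaments. Simple epithelia and heart muscle are known to rely on Dsg2 and Pkp2, whereas stratified epithelia such as epidermis and oesophagus add Dsg3, Dsc3 and Pkp1.

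The 10 genes described here are these desmosomal cadherins (Dsg2, Dsg3, Dsc2, Dsc3), the plaque proteins (Pkp1, Pkp2, Pkp3, Jup, Dsp) and the membrane protein Perp, which is needed for desmosomes of stratified epithelium. They were chosen by gene symbol, and all 10 were among the 24421 genes of the counts table. Dsg2, Pkp2, Jup and Dsp were set apart as the widely expressed members, and the other 6 were taken as members of stratified epithelium. Dsc2 and Pkp3 are also known from simple epithelia, so that placement is a convention.

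Total RNA was sequenced from regions of mouse lung squamous cell carcinoma (SCC, 5 libraries) and of normal lung (5 libraries), cut by laser from fixed, paraffin-embedded sections. The SCC arose in wild type NIH Swiss mice treated with NTCU, a nitrosourea carcinogen that is painted on the skin to induce lung SCC in mice. The normal lung came from wild type NIH Swiss mice with no treatment. The labels tie no library to an animal and give no age, so regions of a group may share an animal; the p-values measure the spread between libraries and are too small where they do.

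Total counts ran from 1004105 to 3691806 in SCC and from 1457641 to 6817106 in normal lung. SCC libraries stood apart among themselves. Counts on olfactory and vomeronasal receptor genes, which lung is not known to use, amounted to at least 3.45 CPM (counts scaled to the library total) per kb of coding sequence in SCC 1, SCC 3 and SCC 4. They amounted to 0.621 and 0.436 CPM per kb in SCC 2 and SCC 5, while no normal library exceeded 0.213. By chi-square per degree of freedom over genes, SCC 3 and SCC 4 were also the most alike pair, at 2.93. Other pairs within a group gave at least 11.5. That measure grows with depth, and the Spearman correlation was 0.92 for SCC 3 and SCC 4 and 0.924 for normal 1 and normal 3. Results are therefore also given for SCC 2 and SCC 5 alone and after subtraction of a background proportional to gene length.

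Each of the 6 stratified members rose in SCC, and Dsp was the only widely expressed member of the 4 that did. In all 7 members were higher, 0 were lower and 3 did not pass the test at a Benjamini-Hochberg adjusted p under 0.05, where 12.5% of the 13203 tested genes were higher and 8.68% lower (edgeR quasi-likelihood test, n = 5 each). At an unadjusted p under 0.05 and with DESeq2 the number lower was also 0, and with limma-voom it was 1 (Jup). The number higher was 7 as well when the SCC group was limited to SCC 2 and SCC 5, where 4.14% of genes were higher, 5.16% lower and 9.3% either. It was 7 after background subtraction (8.02% of genes higher, 6.71% lower) and 7 when the SCC group was limited to SCC 1, SCC 3 and SCC 4 (24.7% higher, 18.9% lower, 43.6% either). The count cannot be read as evidence for the family by itself. Dsg3, Dsc2, Dsc3 and Pkp1 passed the filter on low counts only through the SCC libraries, with no normal library at or above 4.69 CPM, so a difference was built in for these 4 genes. The median log2 fold change was 8.23 over the stratified members and -0.23 over the widely expressed ones, beside 0.07 over all tested genes; Dsg3 set at its lower bound leaves the first median as it is. For 7 members each SCC library was above each normal library in CPM, as for 8.81% of tested genes, and for 0 members each was below, as for 5.77%.

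**Figure D1:**
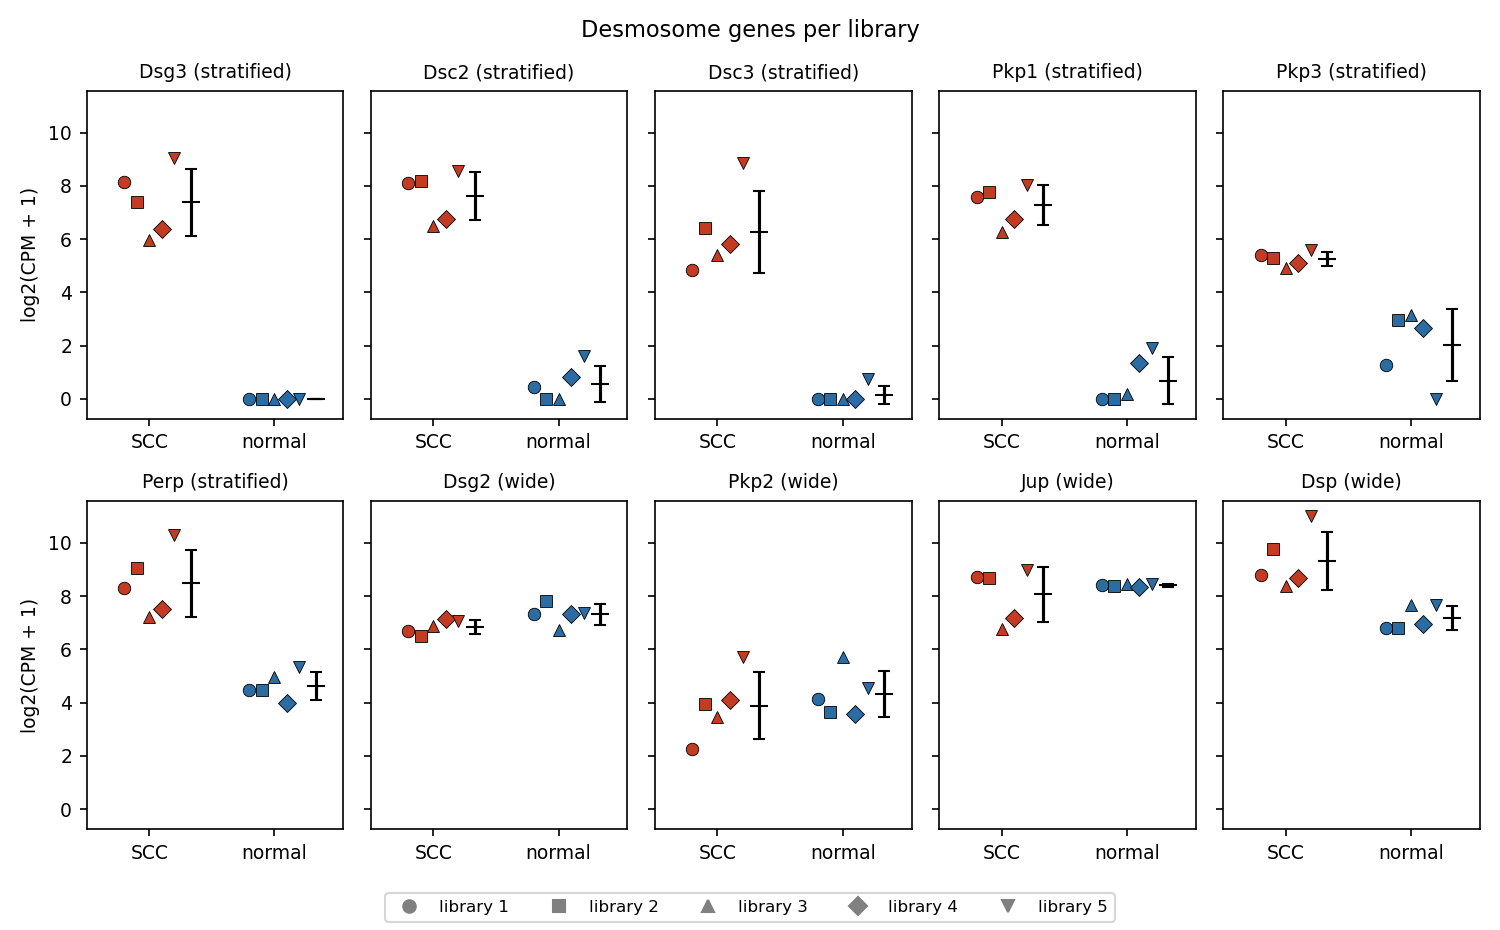
Log2(CPM + 1) of the 10 desmosome genes in each library, SCC in red and normal lung in blue, with marker shapes for library numbers and black bars for mean and SD of 5 libraries. Dsg3 is at 0 in the 5 normal libraries and between 62.2 and 531 CPM in SCC, while the groups overlap for Dsg2, Pkp2 and Jup.

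Among the desmogleins, Dsg3 appeared in SCC beside Dsg2, which was not called. Dsg3, the desmoglein of basal and mucosal stratified epithelium, had 283, 167, 62.2, 81.7 and 531 CPM in SCC 1 to SCC 5 and no count in any normal library. Against a floor of 3 counts over the 5 normal libraries it was at least 1133-fold higher in SCC, or at least 748-fold without SCC 5 (edgeR adjusted p = 3.87e-08). The floor covers counting error only. Dsg2, the desmoglein of simple epithelia, had 104, 88.8, 116, 139 and 134 CPM in SCC 1 to SCC 5 and 162, 226, 105, 159 and 165 CPM in normal 1 to normal 5. Only normal 3 lay within the range of the SCC libraries. The log2 fold change of Dsg2 was -0.61 (SE 0.35, n = 5 each, edgeR adjusted p = 0.235), with 2 SE on each side running from -1.31 to 0.09, so Dsg2 was not called. It was called lower when the SCC group was limited to SCC 1, SCC 3 and SCC 4 (-0.82, edgeR adjusted p = 0.0361).

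Dsg3 and Dsg2 are neighbours in the cadherin cluster on chromosome 18 that holds 4 of the 10 genes. Their difference was tested as a ratio within each library. The log2 ratio of Dsg3 to Dsg2 counts (0.5 added to each) averaged 0.53 ± 1.31 in SCC and -9.66 ± 0.58 in normal lung (SD, n = 5 each). The groups differed by 10.2 (exact two-sided permutation p = 0.00794, the smallest the design allows, adjusted p = 0.0106 over 4 ratios). With no Dsg3 count in normal lung the size of this difference is set by the count added. It was 12.5 with 0.1 added and 8.20 with 2 added, at the same p. Dsg3 passed the filter on low counts only through the SCC libraries, so the separation behind this p was built in. The p adds no support. Per kb of transcript, Dsg3 made up 71.7%, 63.5%, 33.2%, 35.2% and 78.7% of the sum of both desmogleins in SCC 1 to SCC 5, and 0% in normal lung. It was the larger part in SCC 1, SCC 2 and SCC 5 and the smaller part in SCC 3 and SCC 4. The sum was 56.4 ± 31.7 CPM per kb in SCC and 28.3 ± 7.43 CPM per kb in normal lung (SD, n = 5 each). The ranges overlapped, since SCC 3 and SCC 4 lay below normal 2.

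Both desmocollins were close to absent from normal lung and rose in SCC. Dsc2, the desmocollin of most epithelia that have desmosomes, had 275, 287, 90.3, 108 and 373 CPM in SCC 1 to SCC 5 and no more than 2.06 CPM in a normal library. The normal value rests on 6 counts over 5 libraries. Its log2 fold change was 8.71 (SE 0.74, edgeR adjusted p = 1.08e-08). Leaving out normal 3 gave 7.98 and leaving out normal 5 gave 9.38.

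Dsc3, found mainly in the lower layers of stratified epithelia, had 27.3, 84.5, 41.8, 55.8 and 460 CPM in SCC 1 to SCC 5. Normal lung had 1 count, in normal 5. SCC 5 stood far above the other SCC libraries, and the highest SCC value was 16.8 times the lowest. The ratio of pooled rates was 2414, with a 95% counting interval (Clopper-Pearson) of 433 to 95422, which covers counting error only. The fitted log2 fold change of 10.1 (SE 1.05, edgeR adjusted p = 2.19e-07) was 8.60 without SCC 5, 9.44 without normal 3 and 11.4 without normal 5. In SCC 1 the estimated background came to 19.5 of the 29 Dsc3 counts, or 67.3%, so the level there is uncertain. It came to 33.5 of the 76 Dsc3 counts in SCC 3 and to 19.8 of the 56 in SCC 4.

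The balance of the desmocollins could not be compared with normal lung, where at most 4 counts of the pair fell in a library. The log2 ratio of Dsc3 to Dsc2 was -1.36 ± 1.32 in SCC and -1.03 ± 1.02 in normal lung (SD, n = 5 each, exact permutation p = 0.667). Within SCC, Dsc3 made up 7.94%, 20.4%, 28.7%, 31.0% and 51.7% of both desmocollins per kb in SCC 1 to SCC 5. Dsc2 was thus the larger part in SCC 1 to SCC 4. Of all 4 cadherins per kb, Dsg2 made up 20.9% ± 12.7 in SCC and 99.4% ± 0.82 in normal lung (SD, n = 5 each).

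**Figure D2:**
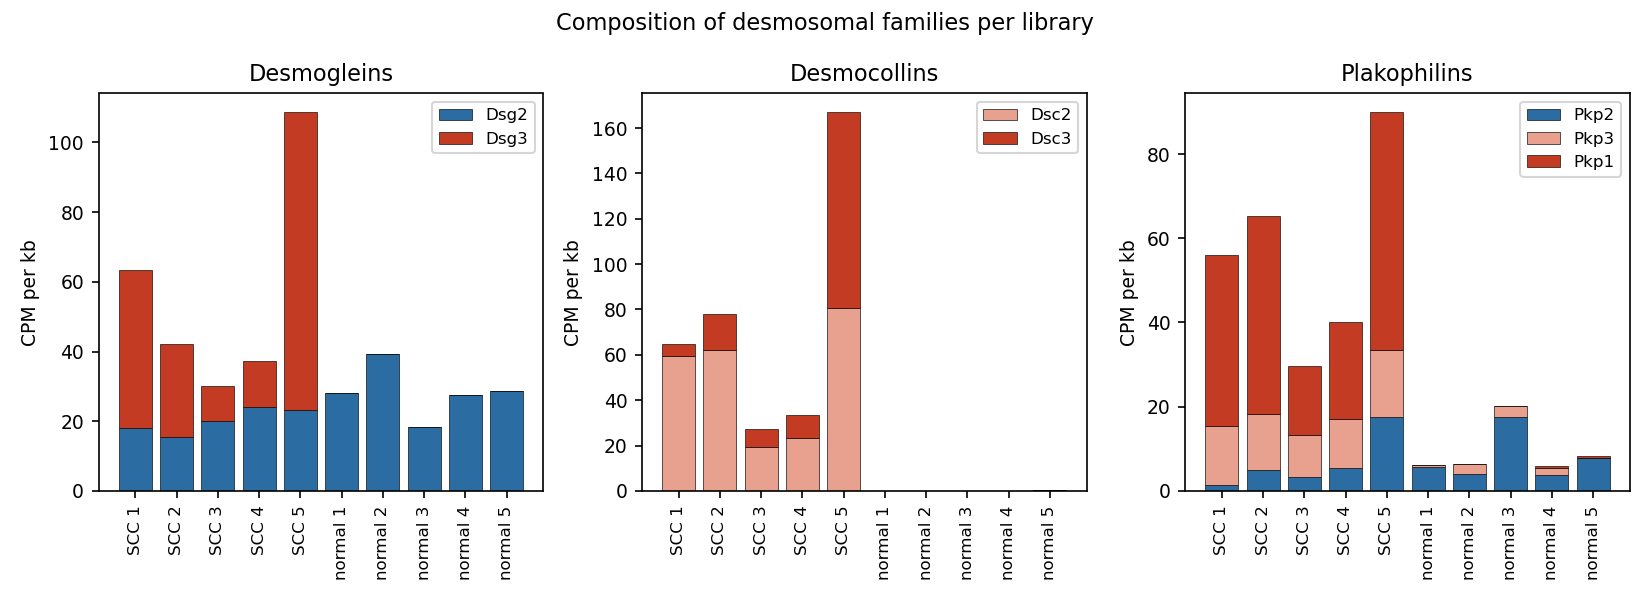
CPM per kb of transcript of each desmoglein, desmocollin and plakophilin per library, stacked, with SCC to the left of normal lung. SCC libraries hold Dsg3, Dsc2, Dsc3 and Pkp1; normal libraries hold Dsg2 and no Dsg3, almost no desmocollin, and mostly Pkp2 among the plakophilins.

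The plakophilins, armadillo proteins that cluster cadherins and bind Dsp, changed in makeup as well. Pkp1, the plakophilin of the upper layers of stratified epithelium, had 189, 220, 76.0, 108 and 263 CPM in SCC 1 to SCC 5, against 0, 0, 0.147, 1.54 and 2.74 CPM in normal 1 to normal 5. Its log2 fold change was 7.75 (SE 0.71, edgeR adjusted p = 3.87e-08), with 9 counts in normal lung. Leaving out normal 3 gave 7.16 and leaving out normal 5 gave 8.33. Pkp3, which binds the widest set of desmosomal cadherins, had 41.5, 38.5, 29.2, 33.9 and 47.0 CPM in SCC 1 to SCC 5, against 1.43, 6.84, 7.92, 5.40 and 0 CPM in normal 1 to normal 5. The rise of Pkp3 was 2.98 on the log2 scale (SE 0.68, edgeR adjusted p = 0.00212). Pkp3 was among the steadiest members in SCC before background was subtracted, the highest value being 1.61 times the lowest. The estimated background held 18.3 of the 53 Pkp3 counts in SCC 3, the lowest library, and 3.11 of the 115 in SCC 5, the highest. The size of that spread is therefore uncertain.

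Pkp2, the plakophilin of simple epithelia and heart, had 3.77, 14.6, 9.91, 15.9 and 51.0 CPM in SCC 1 to SCC 5 and 16.5, 11.6, 50.9, 10.8 and 22.6 CPM in normal 1 to normal 5. One library of each group, SCC 5 and normal 3, stood near 51 CPM, and the groups overlapped. The log2 fold change was -0.28 (SE 0.64, edgeR adjusted p = 0.811), with an interval of 2 SE on each side from -1.55 to 0.995, so neither a rise nor a fall was detectable at this depth. The sign turned without normal 3 (0.20, adjusted p = 0.885) and when the SCC group was limited to SCC 2 and SCC 5 (0.46, adjusted p = 0.777), and the value was -1.18 without SCC 5 (adjusted p = 0.190). In SCC 1 and SCC 3 the 4 and 18 Pkp2 counts lay below the estimated background of 10.7 and 18.3 counts.

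Heart muscle also uses Pkp2, Dsg2, Dsp and Jup, and its markers moved with the groups. The 10 heart muscle markers summed to between 68.0 and 296 CPM in SCC and between 721 and 1260 CPM in normal lung, and none was at 0 throughout a group. Of the 7 that were tested, 7 were lower in SCC, as were 8.68% of all tested genes. In normal 3, the normal library of highest Pkp2, the sum was 940 CPM, within the range of the other normal libraries (721 to 1260 CPM). Single markers differed there: Myh6, the atrial myosin heavy chain, was highest in normal 3 among the normal libraries (408 CPM), and Ryr2, a calcium channel, was lowest (122.8 CPM, against 320.7 to 644.6 in the others). The part of heart muscle in the levels of the widely expressed members was not tested.

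Within libraries the stratified plakophilins gained on Pkp2. The log2 ratio of Pkp1 to Pkp2 averaged 3.47 ± 1.26 in SCC and -5.02 ± 2.26 in normal lung (SD, n = 5 each, exact permutation p = 0.00794, adjusted p = 0.0106 over 4 ratios). The difference of 8.49 was 7.78 without normal 3 and 9.08 without normal 4. Pkp1 passed the filter on low counts only through the SCC libraries, so a difference in this ratio was built in and its p adds no support. The log2 ratio of Pkp3 to Pkp2 averaged 1.43 ± 1.23 in SCC and -2.76 ± 2.16 in normal lung (SD, n = 5 each), with an exact permutation p of 0.00794 and an adjusted p of 0.0106. This difference of 4.20 was 3.37 without normal 5, where Pkp3 had no count. Per kb, Pkp1 made up 63.9% ± 8.14 of the 3 plakophilins in SCC and 2.56% ± 3.48 in normal lung, and Pkp2 made up 10.9% ± 6.43 in SCC and 79.5% ± 15.3 in normal lung (SD, n = 5 each).

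**Figure D3:**
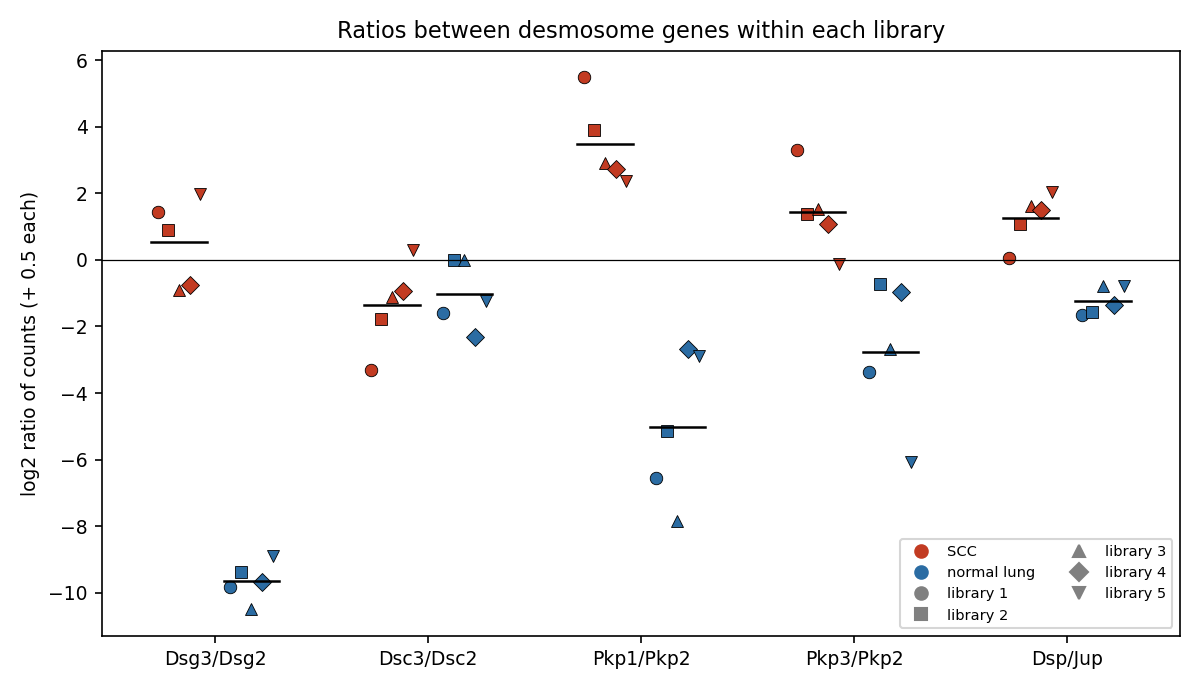
Log2 ratio of counts between pairs of desmosome genes in each library, 0.5 added to each count, SCC in red and left of normal lung in blue, with black lines for group means. The groups do not overlap for Dsg3/Dsg2, Pkp1/Pkp2, Pkp3/Pkp2 and Dsp/Jup, and they overlap for Dsc3/Dsc2, where normal libraries hold at most 4 counts of the pair.

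The 2 plaque genes common to all desmosomes, Dsp and Jup, parted in SCC. Dsp, the linker to keratin filaments (chromosome 13, 38151294 to 38198577, GRCm38), had 439, 877, 334, 406 and 2082 CPM in SCC 1 to SCC 5, against 111, 111, 201, 125 and 201 CPM in normal 1 to normal 5. Each SCC library was above each normal library. Dsp rose by 2.39 on the log2 scale (SE 0.50, edgeR adjusted p = 0.00100), and by 1.59 without SCC 5 (adjusted p = 0.00268). The rise was 3.21 with SCC 2 and SCC 5 alone and 1.02 with SCC 1, SCC 3 and SCC 4 alone.

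Jup, plakoglobin, which serves both desmosomes and adherens junctions (chromosome 11, 100368958 to 100397763), had 420, 415, 107, 142 and 507 CPM in SCC 1 to SCC 5, against 346, 329, 348, 321 and 348 CPM in normal 1 to normal 5. SCC 1, SCC 2 and SCC 5 lay above the normal range, which spanned only 1.09-fold, and SCC 3 and SCC 4 lay well below it. The log2 fold change of -0.19 (SE 0.42) missed the threshold (edgeR adjusted p = 0.795), and 2 SE on each side ran from -1.03 to 0.64. Jup was lower with limma-voom and sample quality weights (-1.28, adjusted p = 0.00114) and with SCC 1, SCC 3 and SCC 4 alone (-0.98, adjusted p = 0.0315). It was 0.23 with SCC 3 and SCC 4 left out (adjusted p = 0.739).

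The log2 ratio of Dsp to Jup was 0.07, 1.08, 1.63, 1.51 and 2.04 in SCC 1 to SCC 5, while normal libraries ran from -1.64 to -0.79. The difference of 2.49 had an exact permutation p of 0.00794 (n = 5 each, adjusted p = 0.00992 over 5 ratios). This ratio was chosen after the values of both genes were seen.

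RefSeq (GRCm38.p6) gave the start regions of 2 of the 10 genes, Dsp and Jup, whose levels parted. The 250 bases before each annotated start are shown 5′ to 3′ on the gene's strand, with GGGCGG or its reverse complement in capitals.
Dsp, chr13:38151044-38151293, plus strand: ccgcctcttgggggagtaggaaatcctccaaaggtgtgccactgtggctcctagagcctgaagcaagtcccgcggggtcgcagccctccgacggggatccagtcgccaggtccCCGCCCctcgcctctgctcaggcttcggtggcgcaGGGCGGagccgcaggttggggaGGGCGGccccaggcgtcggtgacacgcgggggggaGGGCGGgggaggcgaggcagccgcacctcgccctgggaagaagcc
Jup, chr11:100397791-100398040, minus strand: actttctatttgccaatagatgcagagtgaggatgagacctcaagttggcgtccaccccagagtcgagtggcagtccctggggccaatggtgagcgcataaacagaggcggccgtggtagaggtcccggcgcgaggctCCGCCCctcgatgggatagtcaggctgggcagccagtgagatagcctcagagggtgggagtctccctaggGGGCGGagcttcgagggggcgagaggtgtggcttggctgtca
GGGCGG, the GC box read by factors of the Sp and Klf families, occurred 4 times before Dsp and 2 times before Jup, and 32.7% of the 32851 start regions of that length in the table held it. On either strand neither window held CAGGTG, an E-box that Snail and Zeb factors read (17.2% of regions), AACCGGTT, read by grainyhead-like factors (0.116%), TGANTCA, read by AP-1 (6.75%), or TATAAA (12.4%). The motifs searched do not overlap each other in these windows.

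Perp, a membrane protein encoded by a target of p63 and p53 (chromosome 10, 18845020 to 18857073), was the highest member per kb in SCC. It had 319, 536, 147, 182 and 1258 CPM in SCC 1 to SCC 5, against 21.1, 21.2, 29.9, 14.7 and 39.1 CPM in normal 1 to normal 5. The groups did not overlap. Perp rose by 4.21 on the log2 scale (SE 0.56, edgeR adjusted p = 5.94e-06), by 3.37 without SCC 5, and by 2.74 with SCC 1, SCC 3 and SCC 4 alone.

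**Figure D4:**
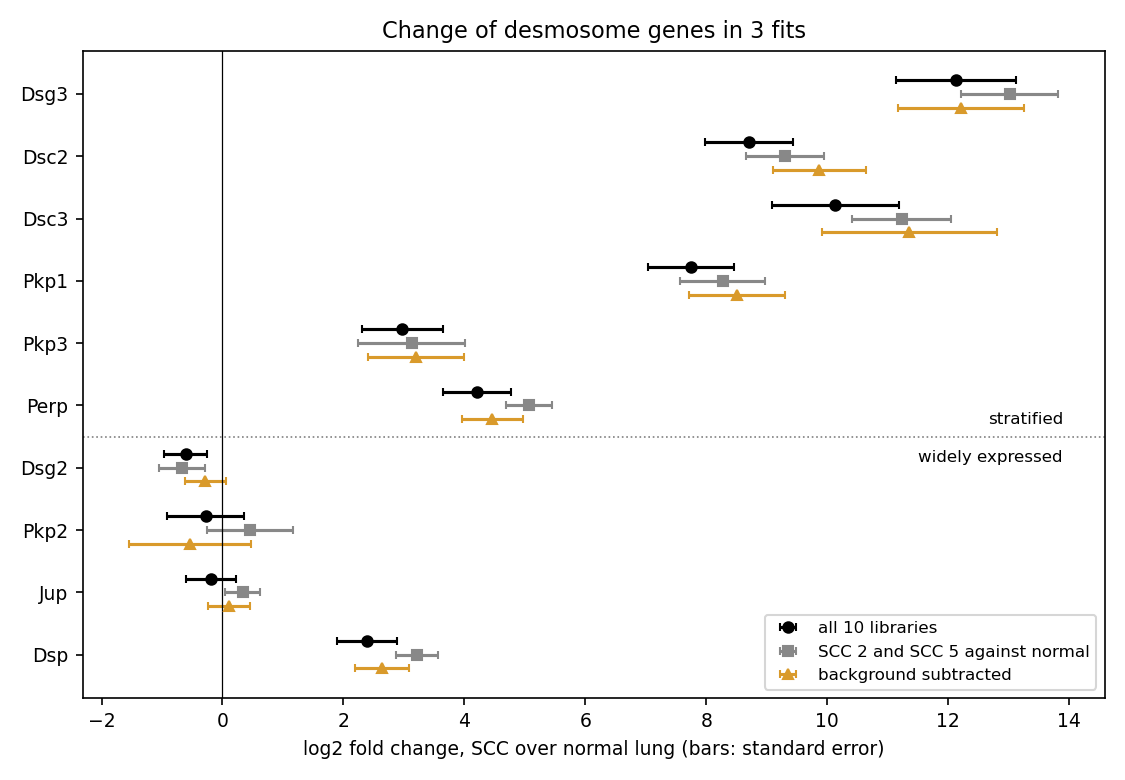
Log2 fold change of each desmosome gene, SCC over normal lung, with bars of 1 standard error, from all 10 libraries (circles), from SCC 2 and SCC 5 against normal lung (squares) and after background subtraction (triangles). The fitted value of Dsg3 depends on the prior count, since normal lung has no count. The 6 stratified members and Dsp lie above 0 in each of these fits, and Dsg2, Pkp2 and Jup stay within 0.7 of 0.

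Levels can be ordered between genes per kb of the longest coding transcript. In SCC the order of mean CPM per kb was Perp (250.2), Jup (99.3), Dsp (86.3), Dsc2 (48.9), Pkp1 (36.7), Dsg3 (36.2), Dsc3 (25.1), Dsg2 (20.2), Pkp3 (13.01) and Pkp2 (6.53). The ranges of each gene and the next in this order overlapped over the SCC libraries, although Perp exceeded Jup in 5 of 5 libraries. In normal lung the order was Jup (105.5), Dsg2 (28.3), Dsp (15.6), Perp (12.9), Pkp2 (7.71), Pkp3 (1.48), Pkp1 (0.190), Dsc2 (0.138), Dsc3 (0.0257) and Dsg3 (0). Jup stood clear of Dsg2, and Pkp2 of Pkp3, while the other neighbours overlapped in range. Dsg2 was eighth in SCC and second in normal lung.

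Across SCC libraries, SCC 5 was highest for 9 of the 10 genes and SCC 3 lowest for 7. Dsc3 and Pkp2 spread most, at 16.8 and 13.5 times from lowest to highest, followed by Perp (8.56), Dsg3 (8.53) and Dsp (6.24). Dsg2 spread least, at 1.57 times, and was the member not highest in SCC 5 (139 CPM in SCC 4 and 134 CPM in SCC 5). The estimated background held 21.4 of the 140 Dsg2 counts in SCC 4 and 6.15 of the 327 in SCC 5, so that exception is uncertain. The sum of the basal cell markers was also highest in SCC 5 and lowest in SCC 3, at 1173, 1357, 575, 747 and 3223 CPM in SCC 1 to SCC 5, against 23.9 to 67.7 CPM in normal lung, with 4 of 5 higher (all but Ngfr). Over all tested genes 12.5% were higher. Krt14 and Krt15 passed the filter on low counts only through SCC, so a difference was built in for them. Krt5 and Krt14 made up most of the sum in SCC 5, while Krt15 was lowest there, at 171.6, 317.5, 104.6, 93.6 and 5.31 CPM in SCC 1 to SCC 5, and Ngfr was highest in SCC 1. Their part in the spread of the members was not tested.

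Markers that most epithelial cells share were also higher in SCC. Their sum over 9 genes ran from 393 to 1489 CPM in SCC and from 163 to 321 CPM in normal lung, with 7 of the 9 higher and 0 lower. Over all tested genes 12.5% were higher and 8.68% lower. In bulk regions a larger share of epithelial cells and more RNA per cell cannot be told apart. Relative to that sum, 5 members (Dsg3, Dsc2, Dsc3, Pkp1 and Perp) were above normal lung in each SCC library, as for 0.977% of tested genes. Dsg3, Dsc2, Dsc3 and Pkp1 passed the filter only through SCC. Their ratios were at most 0.0093 in normal lung, so a difference was built in and the division says little about them. Dsg2, Pkp2 and Jup were below normal lung in each SCC library, as for 33.9% of tested genes, and Pkp3 and Dsp overlapped. Dsp stood at 0.423 to 1.49 times the epithelial sum in SCC and at 0.499 to 0.970 times in normal lung. The part of epithelial content in the levels was not tested further.

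**Figure D5:**
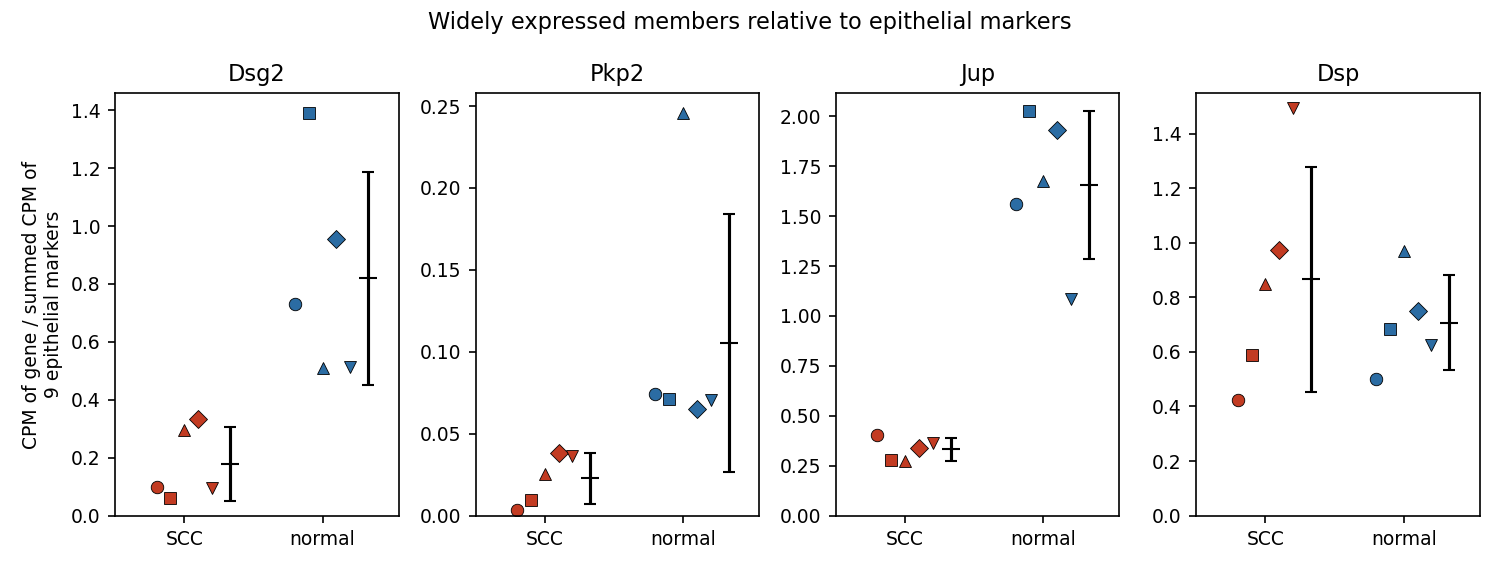
CPM of Dsg2, Pkp2, Jup and Dsp divided by the summed CPM of 9 epithelial markers in each library, SCC in red left of normal lung in blue, with marker shapes for library numbers 1 to 5 and black bars for mean and SD of 5 libraries. Jup runs from 0.274 to 0.404 in SCC and from 1.08 to 2.02 in normal lung, and the groups overlap for Dsp.

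Several alveolar and vascular cell types of normal lung were weaker in SCC. Over all tested genes 8.68% were lower and 12.5% higher. Type 2 alveolar markers summed to 393 to 714 CPM in SCC and 7121 to 10300 CPM in normal lung, with 6 of 6 lower, and blood endothelial markers to 72.3 to 184 CPM in SCC and 1243 to 2323 CPM in normal lung, with 4 of 5 lower. Type 1 alveolar markers had 5 of 6 lower and 1 higher, club cell markers 2 of 4 lower, ciliated cell markers 1 of 5, lymphatic endothelial markers 2 of 4 tested and fibroblast markers 2 of 5. Mesothelial markers had 2 of 4 tested higher, Msln and Upk1b, while Lrrn4 and Upk3b did not pass. Ccl21a, a lymphatic marker, was at 0 in all libraries, and no other of these markers was at 0 throughout a group. Their part in the results was not tested.

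Other desmosomal genes were mostly too low to test. Of 7 genes, 5 (Dsg1a, Dsg1c, Dsg4, Dsc1 and Cdsn) did not pass the filter and held 41 to 130 counts over the SCC libraries and 0 to 12 over normal lung. Dsg1b, a desmoglein of upper layers in skin, rose by 4.94 (SE 0.96, edgeR adjusted p = 0.000483), at 20.7 ± 15.8 CPM in SCC and 0.624 ± 0.572 CPM in normal lung (SD, n = 5 each). Dsg1b passed the filter only through SCC, so a difference was built in. The Dsg1 genes are near copies, so the split of reads between them is uncertain. Pkp4, a plakophilin relative of both kinds of junction, stood at 86.6 ± 32.8 CPM in SCC and 101 ± 9.69 CPM in normal lung and did not pass (edgeR adjusted p = 0.561).

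Of the 6 plakins, giant linkers between junctions and filaments, 3 rose and 1 fell, beside 12.5% of all tested genes higher and 8.68% lower. Evpl and Ppl, plakins of stratified epithelium that join desmosomes to the cornified envelope, rose by 3.45 (SE 0.43) and 1.69 (SE 0.44), and Eppk1, a keratin-binding plakin, rose by 1.87 (SE 0.39). Evpl averaged 179 ± 62.7 CPM in SCC and 15.2 ± 8.14 CPM in normal lung (SD, n = 5 each, edgeR adjusted p = 2.89e-06). Macf1, which crosslinks actin and microtubules, fell by 2.52 (SE 0.46, edgeR adjusted p = 0.000257), and Plec and Dst did not pass (0.21 and -0.54). The median over the list was 0.95, beside 0.07 over all tested genes.

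Of 10 adherens junction genes, which build the actin-linked neighbour of the desmosome, 3 were higher and 1 lower, with a median log2 fold change of -0.21. The shares over all tested genes were 12.5% higher and 8.68% lower. Cdh3, the P-cadherin of basal cells, rose by 4.65 (SE 0.70), at 58.8 ± 51.7 CPM in SCC and 2.17 ± 1.87 CPM in normal lung (SD, n = 5 each, edgeR adjusted p = 2.65e-05). The nectin genes Pvrl4 and Pvrl1 (older symbols, as in the table) rose by 2.98 and 1.34, and Vcl, vinculin, fell by 1.36 (edgeR adjusted p = 0.0132). In the fit limited to SCC 2 and SCC 5, Vcl was not called (-0.83, edgeR adjusted p = 0.156). Cdh1, E-cadherin, was at 381 ± 217 CPM in SCC and 370.1 ± 68.7 CPM in normal lung (SD, n = 5 each), a log2 fold change of -0.07 (SE 0.41, edgeR adjusted p = 0.924). Its catenins Ctnnb1, Ctnna1 and Ctnnd1 did not pass either (-0.45, -0.77 and -0.57).

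The keratins that desmosomes anchor were also measured. Of 9 keratins of stratified epithelium 9 rose, with a median of 9.31, beside 12.5% of all tested genes higher and 8.68% lower. Their sum was 1046 to 6782 CPM in SCC and 0.716 to 8.92 CPM in normal lung. All but Krt5 passed the filter on low counts only through the SCC libraries, with no normal library at or above 4.69 CPM. A difference was thus built in for these keratins, and the count and median add no support. Of 4 simple keratins only Krt19 rose (2.27, SE 0.44, edgeR adjusted p = 0.000475), and Krt7, Krt8 and Krt18 did not pass (1.08, 0.89 and 0.16). Krt7 was called higher in the fit limited to SCC 2 and SCC 5 (edgeR adjusted p = 0.0123) and once background was subtracted (0.0172). Krt6b was the stratified keratin not called in the fit limited to SCC 2 and SCC 5 (adjusted p = 0.0752).

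Of 13 regulators linked to desmosomal genes or epithelial identity, 9 rose and 2 fell, beside 12.5% of all tested genes higher and 8.68% lower. Trp63, which drives Perp and other adhesion genes in stratified epithelium, stood at 141 ± 84.0 CPM in SCC and 2.07 ± 1.63 CPM in normal lung (SD, n = 5 each) and rose by 6.05 (SE 0.57). Others that rose included Grhl1 (3.64), Grhl2 (1.74), Grhl3 (4.53), Klf5 (1.48), Ovol1 (3.82), Zfp750 (3.95) and Snai2 (1.14). Grhl3 and Ovol1 passed the filter on low counts only through SCC, so a difference was built in for them. Zeb1 and Zeb2 fell, with log2 fold changes of -1.62 (SE 0.36) and -1.80 (SE 0.37), and Klf4 and Snai1 did not pass. In the fit limited to SCC 2 and SCC 5, Snai2 (0.45, edgeR adjusted p = 0.618) and Ovol1 (3.57, 0.116) were not called and Klf4 was (1.31, 0.0162). Over all companion lists, 27 genes were higher, where 12.5% of all tested genes were, and 21 after background subtraction, where 8.02% were. Grhl2 was then not called (1.82, edgeR adjusted p = 0.0651), and Dsg1b, Cdh3, Krt15, Krt6b, Krt16 and Ovol1 had no value in that fit, so their rises were not checked against the background.

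Of 7 genes of desmosome proteolysis 5 were tested. Spink5, an inhibitor of the kallikreins that cleave desmoglein 1 in skin, rose by 9.48 (SE 0.80, edgeR adjusted p = 1.08e-08). Spink5 had 4 counts over the normal libraries and passed the filter on low counts only through SCC, so a difference was built in. Its targets Klk5 and Klk7 did not pass the filter, with 16 and 54 counts over SCC and 4 counts each over normal lung. Both targets were higher in SCC 3 and SCC 4 than in SCC 2 and SCC 5, and the part of background was not tested. Among the sheddases, Adam15 fell by 1.29 (edgeR adjusted p = 0.0277). It was called neither in the fit limited to SCC 2 and SCC 5 (-1.03, adjusted p = 0.224) nor once background was subtracted (-1.31, adjusted p = 0.108). Adam9, Adam10 and Adam17, which release cadherin ectodomains, did not pass (-0.78, -0.63 and -0.41).

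Among all tested genes but the members, those most like Pkp1 over the 10 libraries were Sox21, Arg1, Serpinb2, Cwh43 and Krt5, with root mean square differences of centred log2 CPM of 0.658 to 0.830, where Pkp1 itself varied by 3.47 about its mean. Sox21, a transcription factor, was at 66.0 ± 24.5 CPM in SCC and 0.412 ± 0.920 CPM in normal lung (SD, n = 5 each). The genes most like Dsp were Ptpn13, Fst, Epcam, Sdc1 and Anxa1, at 0.417 to 0.509, where Dsp varied by 1.27. Epcam, an epithelial adhesion molecule, was at 143 ± 117 CPM in SCC and 26.9 ± 8.97 CPM in normal lung (SD, n = 5 each). With only 2 groups, such likeness rests largely on the difference between them.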

How the data were processed

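The deposited table holds raw read counts per gene symbol, 1 column per library. Per the submitters' processing notes, the tools were TopHat2 2.0.1, cutadapt 1.9.1, HTSeq 0.6.1 and DESeq2, on mm10. How strand and multiply mapped reads were handled, and which annotation served, was not given in the sources used here. Per the labels' protocols, RNA was extracted with a kit for fixed tissue and a stranded low-input kit made the libraries. Exons of Dsg2 and Dsp overlap opposite-strand genes in GENCODE M21 (by up to 330 and 499 bases), so their reads could be shared.

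CPM scales a count to the library total, and per kb uses the longest coding transcript in GENCODE M21 (GRCm38). Counts were tested in R 4.3.3 with edgeR 4.0.16: filterByExpr by group (13203 genes kept), TMM factors, the robust quasi-likelihood test, no covariate and Benjamini-Hochberg adjustment over all tested genes. SE is the log2 fold change divided by the square root of F. Ratios within libraries were compared by exact two-sided permutation over all relabelings. The test was tried on simulated counts with the spread of the normal libraries. It found 15.4% of 2-fold, 92.3% of 4-fold and 100% of 8-fold changes, with 5 false calls. Changes near 2-fold were thus mostly missed. Background was estimated from 1453 receptor genes per kb of coding length, capped at the 98th percentile in each library, and subtracted by transcript length (24045 genes matched, 669 by an older symbol).

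The members, lists and tests were chosen with earlier results of these data known. Named genes were the 10 members, the called genes of each list with at least the 2 of smallest p, and the 5 genes of at least 5 mean CPM nearest to Pkp1 and to Dsp. List members named beside these without a call were added after their values were seen. Alternatives were other scalings, filters and tools (DESeq2 1.42.0, limma 3.58.1), subsets of SCC libraries, and leaving out each library. The values of 1 gene of the lists are not reported here.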

Additional observations from a re-analysis of the deposited data

Results flagged for a closer look

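In 29 groups of 5 libraries checked, 3 single libraries stood apart by a gap to their nearest neighbour of more than 0.71 of the group's range (Dixon's 95% value), where chance gives about 1 in 20 groups. Dsc3 in SCC 5 was at 460.2 CPM, with 27.3 to 84.5 CPM in the other SCC libraries. Pkp2 in SCC 5 was at 51.04 CPM, with 3.77 to 15.9 CPM in the others. Dsc3 in normal 5 was at 0.686 CPM, which is 1 count, and at 0 in the other normal libraries.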

How the results depend on the processing

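The 7 called members kept their direction and call in each of 140 combinations with 20 alternatives, so the number called higher was 7 throughout, and also 7 in each of the 2 added after the data were seen (SCC 1, SCC 3 and SCC 4 alone; SCC 3 and SCC 4 left out). The number called lower was 0, but 1 with limma-voom and 2 with SCC 1, SCC 3 and SCC 4 alone. Jup turned to 0.33 with SCC 2 and SCC 5 alone, 0.11 after background subtraction and 0.23 with SCC 3 and SCC 4 left out. Pkp2 turned to 0.46 with SCC 2 and SCC 5 alone and 0.20 without normal 3, and was -1.18 without SCC 5. The median of the widely expressed members was -0.23, and 0.40 with SCC 2 and SCC 5 alone or -0.90 with SCC 1, SCC 3 and SCC 4 alone. Counting Dsc2 as widely expressed made 2 of that set called higher, and counting Dsc2 and Pkp3 made 3, with a median of 1.10. The causes were not tested. The Dsc3 to Dsc2 ratio difference (-0.34) turned to 0.50 with 0.1 added to counts, 0.30 with SCC 2 and SCC 5 alone (no test at that size) and 0.15 without SCC 1, and ran from -0.75 to 0.15 over libraries left out.

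Of all tested genes, 1645 were higher and 1146 lower. The number higher was 5470 with no filter, 3551 with a filter of 1 CPM in 5 libraries, 3259 with limma-voom, 592 with SCC 2 and SCC 5 alone, 925 after background subtraction, 3841 with SCC 1, SCC 3 and SCC 4 alone, and 887 with SCC 3 and SCC 4 left out. The number lower was 2072 with no filter, 2766 with limma-voom, 738 with SCC 2 and SCC 5 alone and 2927 with SCC 1, SCC 3 and SCC 4 alone. Companion genes called lower numbered 5, but 14 with limma-voom, 3 with SCC 2 and SCC 5 alone, 14 with SCC 1, SCC 3 and SCC 4 alone and 3 with SCC 3 and SCC 4 left out. The median log2 fold change of all tested genes was 0.074 with TMM, 0.157 with DESeq2 factors and 0.265 with upper-quartile factors; the 7 called members lie well above these shifts. No paired analysis was possible because the labels give no replicate numbers that groups share. Counts of 0 to 9 in normal lung limit the folds of Dsg3, Dsc2, Dsc3 and Pkp1.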
